A study of Mus musculus with 6 samples.

Results

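This account covers the mouse genes whose symbols start with Srsf, Hnrnp or Snrp, the serine/arginine-rich splicing factors, the heterogeneous nuclear ribonucleoproteins and the small nuclear ribonucleoprotein polypeptides. Genes were taken from array probes that name exactly 1 gene symbol, symbols marked as pseudogenes were left out, and a gene with several probes kept the probe with the highest mean over the 6 arrays. This gave 34 genes of 30142 on the arrays, 10 Srsf, 16 Hnrnp and 8 Snrp genes. A further 9 probes name such a gene together with another symbol and were kept apart. RNA was measured on 6 Clariom D Mouse arrays, 3 of platelets from mouse blood and 3 of bone marrow cells labelled megakaryocyte progenitors. Each cell type had 1 array each from mice given PBS as control, CTC41-EVs and CTC41.5G-EVs (EVs usually stands for extracellular vesicles), and the labels do not explain the names CTC41 and CTC41.5G. RNA of the mice of a group was pooled for its array, so no combination of cell type and treatment was replicated. The p-values and SEs of the fit rest on how evenly the cell type difference held over the 3 treatments, moderated by the spread of all genes at like signal. The moderation weighed more, with a median of 5.04 prior degrees of freedom against 2 residual ones. The spread over the treatments mixes differences between single pools with any EV effect that differs between the cell types. The labels used here give no strain, age, dose or number of mice per pool, and they do not say which pools were depleted of leukocytes and erythrocytes with beads before RNA isolation.

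Most mouse protein-coding genes are transcribed with introns, which the spliceosome removes in the nucleus. SR proteins bind exonic enhancers through RNA recognition motifs and recruit the splicing machinery through their arginine- and serine-rich tails, whereas hnRNP proteins coat nascent transcripts and often silence nearby splice sites. The Snrp genes encode the Sm proteins, which form a ring on the spliceosomal small nuclear RNAs, and polypeptides that belong to single particles such as the U1 or U2 particle. Platelets are shed from megakaryocytes without a nucleus and carry over megakaryocyte RNA. Splicing of some pre-mRNAs in the cytoplasm of activated platelets has been described in human cells.

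The promoter letters of 3 genes are shown because they carry the results described below: among genes with at least 150 promoter bases outside the annotated gene, Srsf9 and Hnrnpc had the largest rise of their family in platelets, and Snrpc was the one gene that fell. The stretches come from the RefSeq promoter table of GRCm38.p6, run 5′ to 3′ on the gene's strand, start 250 bases before the annotated start and stop where the gene's annotated span begins. Capitals mark CCAAT and GGGCGG, each on either strand, so that ATTGG and CCGCCC also count.
Srsf9, chr5:115326927-115327162, plus strand: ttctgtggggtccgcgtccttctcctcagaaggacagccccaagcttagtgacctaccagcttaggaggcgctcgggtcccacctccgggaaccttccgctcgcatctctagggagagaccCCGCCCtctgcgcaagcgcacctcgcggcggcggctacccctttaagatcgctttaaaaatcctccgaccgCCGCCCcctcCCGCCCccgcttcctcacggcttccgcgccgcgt
Hnrnpc, chr14:52104040-52104271, minus strand: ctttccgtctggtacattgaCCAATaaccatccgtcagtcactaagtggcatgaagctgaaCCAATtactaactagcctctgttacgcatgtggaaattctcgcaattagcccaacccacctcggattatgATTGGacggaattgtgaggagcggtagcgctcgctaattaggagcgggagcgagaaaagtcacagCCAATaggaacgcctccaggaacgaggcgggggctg
Snrpc, chr17:27839837-27840027, plus strand: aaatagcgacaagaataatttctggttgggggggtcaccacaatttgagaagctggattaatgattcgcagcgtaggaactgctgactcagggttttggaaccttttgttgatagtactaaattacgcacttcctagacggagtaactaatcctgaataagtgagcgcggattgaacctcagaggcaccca
The Hnrnpc stretch held CCAAT 4 times, the reverse strand counted, the Srsf9 stretch held GGGCGG 3 times on the reverse strand, and the Snrpc stretch held neither. Over the 250 bases before the start, 32 of the 34 genes had an entry. CCAAT was present in 16 of these 32 and in 34.5% of 27025 promoters of the same length, and GGGCGG in 22 of 32 and in 32.9%. TATAAA was present in 3 of 32, those of Hnrnpm, Srsf2 and Srsf3, and in 13% of all. The median GC content was 60.8% over the 32 promoters and 52.0% over all. Of the genes that rose in platelets, 10 had an entry, and CCAAT was present in 7 and GGGCGG in 6 of them. These are matches of letters, not measured binding.

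The deposited values are array signals on a log2 scale, and the median over all probes was 4.0 to 4.05 on the platelet arrays and 4.38 to 4.45 on the progenitor arrays. Platelet markers fitted the platelet label, as 11 of 11 tested rose, among them Pf4 by 6.29 on the log2 scale (SE 0.21). In the pools labelled megakaryocyte progenitors, the megakaryocyte genes Pf4, Ppbp and Itga2b stood at 6.44, 5.49 and 6.51, against 12.72, 12.43 and 9.54 in platelets. Of 13 neutrophil genes 11 were lower in platelets than in these pools, Mpo by -3.20 on the log2 scale (SE 0.15). Of 9 stem and progenitor genes, Kit (-1.39, SE 0.09) and Myb (-0.93, SE 0.09) fell in platelets and Slamf1 (4.94, SE 0.14) and Itga2 (3.36, SE 0.11) rose. Signals are per RNA input, so fewer cells of a type and less RNA per cell cannot be told apart.

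In the deposited values, transcripts of most of these genes had a higher signal in platelets than in progenitors, 23 of 30 tested. Genes were tested in limma over all 18875 genes whose mean over the 6 arrays reached 4.23, the median over all probes. The model held terms for cell type and treatment, and calls needed both a 1.5-fold difference and an adjusted p (Benjamini-Hochberg) no higher than 0.05. Of the 34 genes, 30 were tested. In platelets 11 of these rose, 1 fell and 18 were not called, against 16.2% of all genes tested called higher and 25.7% called lower. The 11 make up 36.7% of the 30. The median difference, platelets minus progenitors, was 0.38 for the 30 genes and -0.26 for all genes tested. By family and on the deposited scale, 4 of 9 tested Srsf genes rose, 7 of 14 Hnrnp genes rose, and of 7 Snrp genes 0 rose and 1 fell. The values of the 3 platelet arrays lay wholly above those of the 3 progenitor arrays for 17 of the 30 genes and wholly below for 4 (Hnrnpf, Snrpa1, Snrpc and Srsf12, of which all but Snrpc turned sign with other scalings), against 24.2% and 54.2% of all genes tested. In the plot of signals by array, the red and blue points separate most clearly for Hnrnpc.

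**Figure D1:**
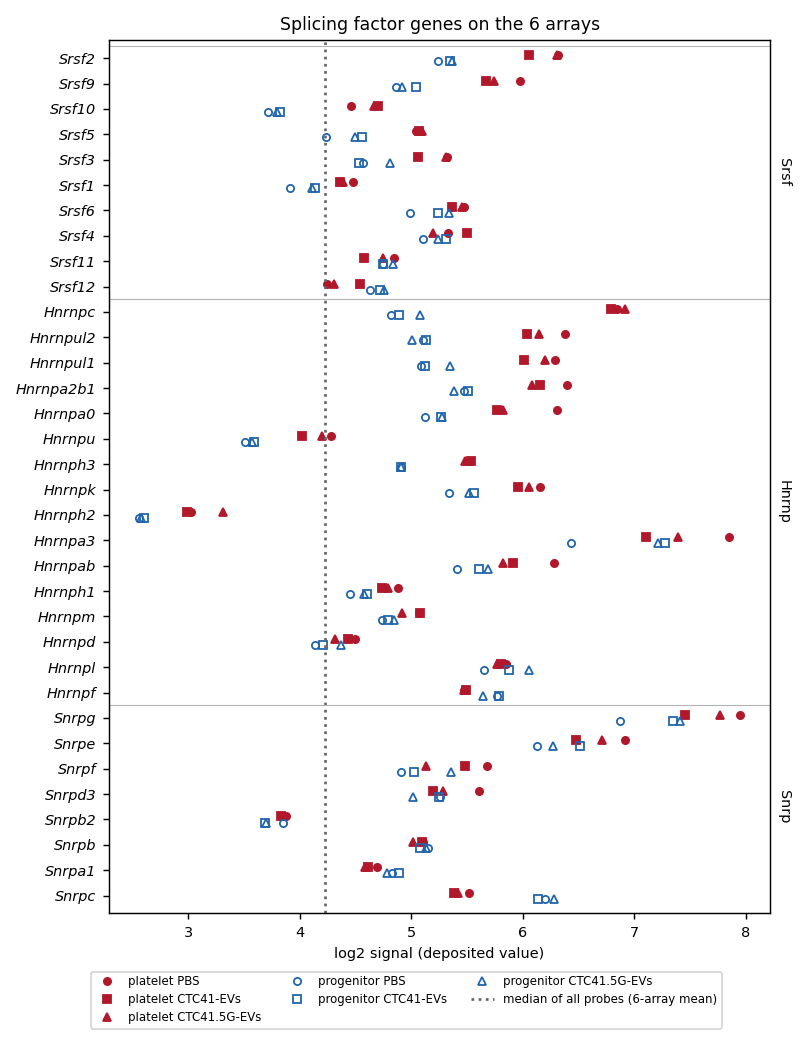
Deposited log2 signal of each of the 34 genes on the 6 arrays, with platelet arrays as filled red and progenitor arrays as open blue symbols, the shape giving the treatment and the dotted line the floor of 4.23. Rows are ordered by cell type difference within each family, and levels of different genes are not comparable because probes differ in affinity.

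Among the SR protein genes, Srsf2, Srsf9, Srsf5 and Srsf3 rose in platelets. Srsf2, which encodes SC35, a classical marker protein of nuclear speckles, stood at 6.32, 6.06 and 6.31 in platelets and 5.24, 5.35 and 5.37 in progenitors; here and below the PBS array comes first, then CTC41-EVs, then CTC41.5G-EVs. The cell types did not overlap, and the difference was 0.91 (SE 0.11, 1.88-fold, adjusted p = 0.000307). Srsf9 stood at 5.98, 5.67 and 5.74 in platelets and 4.86, 5.04 and 4.92 in progenitors, a difference of 0.86 (SE 0.11, adjusted p = 0.000463). Its lowest platelet array lay above its highest progenitor array. Srsf5 differed by 0.63 (SE 0.09, adjusted p = 0.000659) and Srsf3, the smallest SR protein and an export adaptor, by 0.59 (SE 0.09, adjusted p = 0.000774). Srsf3 lay just inside the 1.5-fold limit.

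The other SR genes were not called. Srsf1, a widely studied splicing activator, had means of 4.41 ± 0.06 (SD, n = 3) in platelets and 4.06 ± 0.13 in progenitors, the latter under the floor. Its difference of 0.36 (SE 0.11, adjusted p = 0.0243) missed the 1.5-fold limit. Srsf6 and Srsf4 differed by 0.24 (adjusted p = 0.067) and 0.12 (adjusted p = 0.258). Srsf11 and Srsf12 differed by -0.06 (SE 0.09) and -0.34 (SE 0.09) as deposited, and both signs turned with other scalings. Srsf10, whose protein represses splicing when it is dephosphorylated, lay under the floor on average and was not tested. It stood at 4.46, 4.70 and 4.67 in platelets and 3.72, 3.82 and 3.8 in progenitors, again without overlap, and in the fit with no floor it was called higher (0.83, SE 0.09, adjusted p = 0.000354). Measured from the floor its difference was 0.38.

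The hnRNP genes held the largest difference. Hnrnpc, whose protein binds uridine tracts of nascent transcripts, stood at 6.85, 6.79 and 6.92 in platelets and 4.82, 4.89 and 5.08 in progenitors. All 3 platelet arrays lay far above the progenitor arrays, by 1.92 on the log2 scale (SE 0.10, 3.79-fold, adjusted p = 7.6e-06). Hnrnpul2 stood at 6.38, 6.04 and 6.15 in platelets and 5.11, 5.13 and 5.01 in progenitors (difference 1.10, SE 0.11, adjusted p = 0.00011). Its relative Hnrnpul1 stood at 6.29, 6.01 and 6.2 against 5.09, 5.12 and 5.35 (0.98, SE 0.11, adjusted p = 0.000214). Both encode hnRNP U-like proteins, known also from the DNA damage response, and neither gene showed overlap between the cell types.

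Smaller rises were seen for 4 more hnRNP genes. Hnrnpa2b1, whose protein is known for sorting microRNAs into exosomes, stood at 6.40, 6.16 and 6.08 in platelets and 5.47, 5.51 and 5.38 in progenitors (0.76, SE 0.11, adjusted p = 0.000603). Hnrnpa0, a binder of AU-rich elements, stood at 6.31, 5.77 and 5.82 against 5.12, 5.27 and 5.28 (0.74, SE 0.15, adjusted p = 0.00327). Its PBS array was the high one in platelets. Hnrnph3 differed by 0.61 (SE 0.08, adjusted p = 0.000485) and Hnrnpk, a KH-domain protein that binds cytidine-rich RNA, by 0.59 (SE 0.12, adjusted p = 0.00296). Hnrnpk, like Srsf3, lay just inside the fold limit.

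The remaining tested hnRNP genes were not called. Hnrnpab differed by 0.43 (SE 0.15, adjusted p = 0.036), and Hnrnph1, Hnrnpm and Hnrnpd by 0.26, 0.23 and 0.18. Hnrnpl, a binder of CA repeats, had nearly equal means, 5.81 ± 0.04 (SD, n = 3) in platelets and 5.87 ± 0.21 in progenitors. Hnrnpf, a binder of G-runs, stood lower in platelets on every array (5.47, 5.49 and 5.47 against 5.77, 5.79 and 5.64), a difference of -0.26 (SE 0.09, adjusted p = 0.0379) that missed the fold limit and turned sign with other scalings. Hnrnpu, a nuclear scaffold protein gene, and Hnrnph2 lay under the floor, and with no floor their differences were 0.61 (SE 0.11, called higher) and 0.53 (SE 0.12, not called).

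**Figure D2:**
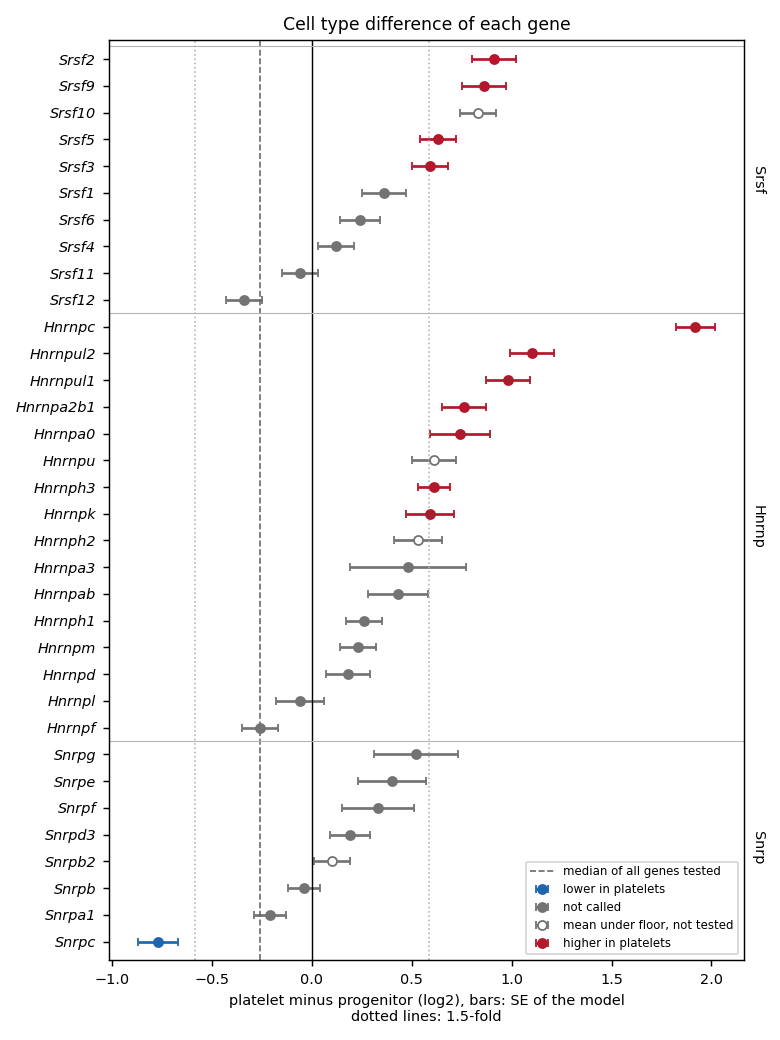
Platelet minus progenitor difference of each gene on the log2 scale, with bars for the SE of the limma model and dotted lines at 1.5-fold. The 11 genes that rose are red, Snrpc, which fell, is blue, and open circles are the 4 genes under the floor, shown with values of the fit without one; the dashed line at -0.26 is the median of all genes tested.

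Of the 7 tested Snrp genes none was called higher as deposited. Snrpd2, kept apart because its probe also names Gm5848, was called higher in an added fit (1.07, SE 0.17). Snrpc encodes the C protein of the U1 particle, which recognises the start of introns, and it was the only gene of the 34 called lower. It stood at 5.52, 5.38 and 5.42 in platelets and 6.2, 6.14 and 6.28 in progenitors, a difference of -0.77 (SE 0.10, adjusted p = 0.000441), and this call was lost with equal array medians (-0.39). Snrpa1, a protein of the U2 particle, differed by -0.21 (SE 0.08, adjusted p = 0.0526), a sign that turned with other scalings, and its partner Snrpb2, which lay under the floor, had means of 3.85 and 3.75. Of the Sm ring genes, Snrpe, Snrpf and Snrpd3 differed by 0.40 (SE 0.17), 0.33 (SE 0.18) and 0.19 (SE 0.10), and Snrpb by -0.04 (SE 0.08), none of them called. Snrpb stood within 5.02 to 5.15 on all 6 arrays. Whether the families differ from each other was not tested.

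For 2 of the 34 genes the probe needs a caveat. The probe number of this array type starts with a chromosome, and it matched the RefSeq chromosome of the named gene for 99.7% of 30099 probes. The Hnrnpa3 probe carries chromosome 3 while RefSeq places the gene on chromosome 2, and the Snrpg probe carries chromosome 17 while the gene lies on chromosome 6. Whether these probes read the genes or near-identical copies was not tested. Hnrnpa3 stood at 7.85, 7.11 and 7.39 in platelets and 6.43, 7.28 and 7.21 in progenitors, so the cell types overlapped and only the PBS arrays were far apart (difference 0.48, SE 0.29, adjusted p = 0.171). Its probe on chromosome 2, which also names Gm6793, stood at 6.41, 5.87 and 5.93 against 5.48, 5.76 and 5.76 (0.40, SE 0.17, adjusted p = 0.0671). Snrpg stood at 7.95, 7.46 and 7.77 against 6.87, 7.35 and 7.41 (0.52, SE 0.21, adjusted p = 0.0568), whereas its probe on chromosome 6 differed by 0.06 (SE 0.12, adjusted p = 0.656). On all 4 probes the platelet PBS array was the highest and the progenitor PBS array the lowest of the 6. Without these 2 genes, the counts of 11 higher and 1 lower stayed as they were.

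**Figure D3:**
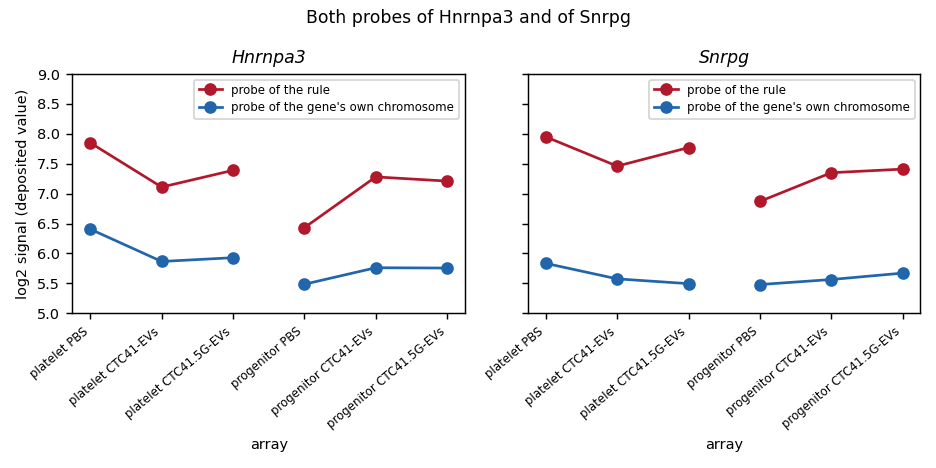
Deposited log2 signal on each array for the probe used for Hnrnpa3 and Snrpg (red) and for the probe on the gene's own chromosome (blue), which for Hnrnpa3 also names Gm6793. Lines join the arrays of 1 cell type; in all 4 cases the platelet PBS array is highest and the progenitor PBS array lowest.

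The number of genes called depended on how arrays were scaled to each other, since the progenitor arrays have higher medians. With quantile normalization 15 of the 30 rose and 1 fell, against 21.9% and 12.1% of all genes tested. With arrays scaled to the same median 19 rose and 0 fell, against 24.8% and 10.1%. Centring on olfactory receptor genes, which blood cells hardly express, gave 26 higher and 0 lower, against 40.4% and 5.46%. The 11 genes that rose as deposited rose in each of these settings. Of the Snrp genes, Snrpf was called higher with quantile normalization, and Snrpe, Snrpf and Snrpg with equal medians. Olfactory centring added Snrpd3 to these, so the count of 0 of the 7 tested Snrp genes higher holds for the deposited scale alone. Snrpc fell with quantile normalization (-0.62) but was not called with equal medians (-0.39) or olfactory centring (-0.05). The signs of Hnrnpl, Snrpa1, Snrpb, Srsf11 and Srsf12 turned in all 3 settings and that of Hnrnpf in the latter 2, so a direction given for them holds for the deposited scale alone. The median over all genes tested was 0.05, 0.11 and 0.46 in these settings, and the median over the 30 genes 0.59, 0.75 and 1.10.

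Within single treatments the median difference was higher in PBS than with either EV type. The median over the 30 genes was 0.68 between the PBS arrays, 0.22 between the CTC41-EVs arrays and 0.24 between the CTC41.5G-EVs arrays, while the median over all genes tested was -0.23, -0.21 and -0.32. At least 1.5-fold higher in platelets were 16 of 30 genes in PBS, 7 with CTC41-EVs and 7 with CTC41.5G-EVs, against 18%, 15.6% and 15.8% of all genes tested, and 1 gene was 1.5-fold lower in each, Snrpc, against 24.1%, 23.4% and 31.3%. With other scalings the counts of genes 1.5-fold higher in PBS, CTC41-EVs and CTC41.5G-EVs were 21, 13 and 14 (quantile), 23, 14 and 17 (equal medians) and 26, 24 and 24 (olfactory centring), so the excess of the PBS count was small in the last. Of all genes tested, 22.8%, 22.1% and 22.2% were 1.5-fold higher with quantile normalization. These shares were 26.7%, 23.7% and 25.2% with equal medians, and 43.1%, 42.6% and 38.6% with olfactory centring. The medians over the 30 genes with olfactory centring were 1.4, 0.92 and 0.98. Each of these sets 1 array against 1, and whether treatments differ was not tested. Hnrnpc was steady at 2.03, 1.90 and 1.84, while Hnrnpa0 stood at 1.19, 0.50 and 0.54. For 26 of the 30 genes the signed difference was highest between the PBS arrays, and for 23 its size was largest there. The same counts were not made over all genes tested, so whether they are particular to these genes cannot be told. Without either PBS array, 7 genes were called higher instead of 11, and Hnrnpa0, Hnrnpk, Srsf3 and Srsf5 were the ones lost. Without either CTC41-EVs array 14 were called higher, and without either CTC41.5G-EVs array 12. Of all 18875 genes tested, 3063 were called higher with all arrays and 2929 without either PBS array. That count was 3135 or 3137 without a CTC41-EVs array and 3080 or 3083 without a CTC41.5G-EVs array.

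**Figure D4:**
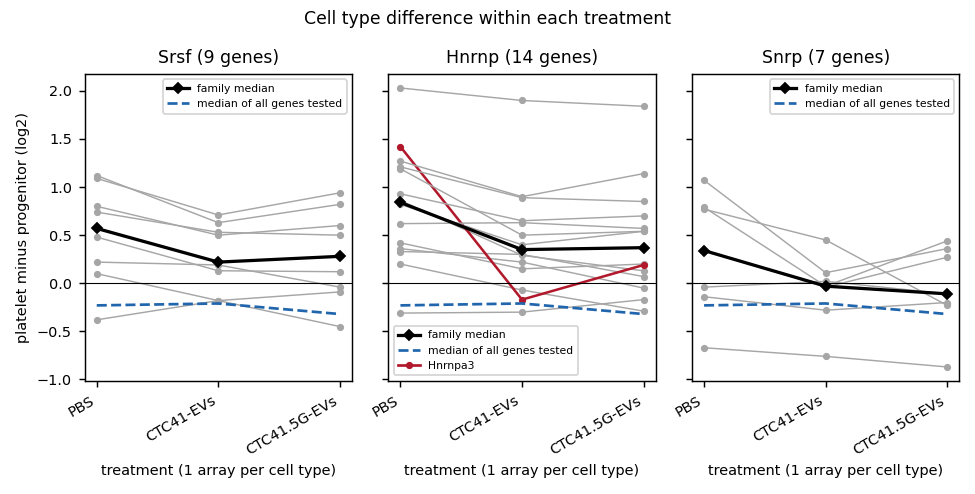
Platelet minus progenitor difference on the log2 scale within each treatment, with a grey line per tested gene, Hnrnpa3 in red, the family median in black and the median of all genes tested as a blue dashed line. Each point is 1 array against 1 array. Of the 30 lines 26 have their highest signed value in PBS, a count not made over all genes tested.

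The next comparison asked whether EVs shifted these genes the same way in both cell types. Averaged over both cell types, limma called 0 of the 30 genes for CTC41-EVs against PBS, for CTC41.5G-EVs against PBS and for one EV type against the other, and it called 0% of all genes in each, although 577, 1171 and 1157 genes had a p under 0.05 before adjustment. Of the 30 genes 0, 0 and 1 were among these. The single gene was Srsf3, with a difference of 0.27 between CTC41.5G-EVs and CTC41-EVs (SE 0.11, adjusted p = 0.797), and the differences of the 30 genes ran from -0.28 to 0.27 over the 3 comparisons. Shifts of opposite sign in the cell types cancel in this average and count as spread in the model. These counts therefore cannot show whether such shifts occurred.

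Within platelets the EV arrays stood slightly below PBS for most of the genes. Of 31 genes whose mean over the platelet arrays reached the floor, 24 had a lower signal with CTC41-EVs, with a median of -0.15, where the median of all 17038 genes was -0.01 and 52.7% of them lay below 0. With CTC41.5G-EVs 27 of 31 had a lower signal, with a median of -0.10 against 0.00 for all genes, of which 49.9% lay below 0. Both comparisons share the PBS array. All 7 Snrp genes had a lower signal with each EV type, with medians of -0.20 and -0.18. At 1.5-fold, 1 gene, Hnrnpa3 (-0.73), was lower and 0 were higher with CTC41-EVs (1.68% and 0.763% of all genes). With CTC41.5G-EVs 0 were lower or higher (1.28% and 0.839%). The Hnrnpa3 probe carries another chromosome than its gene. The probe on chromosome 2 stood at 6.41 with PBS and 5.87 with CTC41-EVs, a fall that did not reach 1.5-fold. Under the 3 other scalings 23 to 28 of the 31 genes had a lower signal with CTC41-EVs and 23 to 27 with CTC41.5G-EVs. Their medians ran from -0.19 to -0.13 and from -0.15 to -0.08. The medians over all genes ran from -0.06 to -0.01 and from -0.05 to 0.01, and the share of all genes below 0 was not counted there. The furthest with CTC41.5G-EVs was Snrpf at -0.55. Between the EV types the genes ran from -0.35 to 0.30, with 0 past 1.5-fold (2% of all genes higher and 1.2% lower).

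Within progenitors the signs were mostly the other way. Of 29 genes over the floor there, 23 had a higher signal with CTC41-EVs than with PBS (median 0.09) and 22 with CTC41.5G-EVs (median 0.13). The medians over all 19882 genes were 0.03 and 0.11, and 41.8% and 27% of them lay below 0, so with CTC41.5G-EVs the signs of the 29 genes were close to those of all genes. Under the other scalings 22 to 26 and 20 to 21 of the 29 genes had a higher signal, with medians of 0.08 to 0.11 and of 0.06. The medians over all genes ran from 0.00 to 0.05 and from 0.02 to 0.04, and the share of all genes above 0 was not counted there. Hnrnpa3 was the only one of the 29 past 1.5-fold, at 0.85 with CTC41-EVs (2.04% of all genes higher, 0.196% lower) and 0.77 with CTC41.5G-EVs (3.68% and 0.694%). Its probe on chromosome 2, the gene's own, stood at 5.48 with PBS and 5.76 with each EV type, rises that did not reach 1.5-fold. Set against each other, the EV arrays differed by values that ran from -0.25 to 0.33, with 0 past 1.5-fold (0.729% of all genes higher and 0.744% lower). These are differences between single arrays and carry no test.

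Other genes of the splicing pathway were set beside the families in 10 lists. Of 117 tested, 27 (23.1%) rose and 4 (3.42%) fell in platelets, with a median of 0.07. Of all genes tested, 16.2% were called higher and 25.7% lower, with a median of -0.26. The list of other hnRNP-type and regulatory RNA-binding proteins had 11 of 27 higher and 0 lower, with a median of 0.57. Mbnl1, muscleblind, a regulator of developmental splicing switches, led it at 10.24 in platelets against 6.0 in progenitors, a difference of 4.24 (SE 0.20, adjusted p = 5.21e-06). Ptbp3, a polypyrimidine tract binder of blood cells, rose by 2.39 (SE 0.21) and Mbnl2 by 2.36 (SE 0.14). Of 9 SR-related protein genes 2 rose, Tra2a (1.12, SE 0.12) and Luc7l3 (0.87, SE 0.10). Of 5 kinases of SR proteins 2 rose, Dyrk1a (1.52, SE 0.10) and Clk3 (0.72, SE 0.10), while Srpk1 differed by -0.08 (SE 0.09).

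Genes of the spliceosome core and its assembly made up further lists. The shares called higher among tri-snRNP (14.8%), branch point (7.69%) and Sm assembly genes (10%) lay under the 16.2% of all genes tested. Those of the Snrnp (16.7%) and exon junction genes (18.2%) lay close to it. Of 27 tested genes of the tri-snRNP, the Prpf19 complex and the helicases, 4 rose, led by Cwc15 (1.55, SE 0.09), Bud31 (1.21, SE 0.11) and Slu7 (0.90, SE 0.08), and Prpf19 itself fell by 0.65 (SE 0.10). Of 13 genes of the branch point machinery 1 rose, Sf3b1 (0.88, SE 0.10), and of 6 Snrnp genes 1 rose, Snrnp25 (0.90, SE 0.16). Of 7 LSm genes Lsm3 (0.88, SE 0.09) and Lsm6 (0.75, SE 0.11) rose and Lsm2 fell by 0.65 (SE 0.09). Of 10 genes that assemble the Sm core, Strap rose by 0.73 (SE 0.12) and Smn1, the survival motor neuron gene, fell by 0.67 (SE 0.10). Of 11 exon junction and export genes, Zc3h14 (1.85, SE 0.11) and Rbm8a (0.73, SE 0.12) rose and Thoc6 fell by 0.64 (SE 0.10). Of 2 tested minor spliceosome genes 1 rose, Zcrb1 (0.93, SE 0.10). The 4 that fell, Prpf19, Lsm2, Smn1 and Thoc6, were not called under any of the 3 other scalings and stood at 0.06, 0.07, 0.05 and 0.08 with olfactory centring. With quantile normalization 46 of the 117 other splicing genes rose and 0 fell, against 21.9% and 12.1% of all genes tested.

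**Figure D5:**
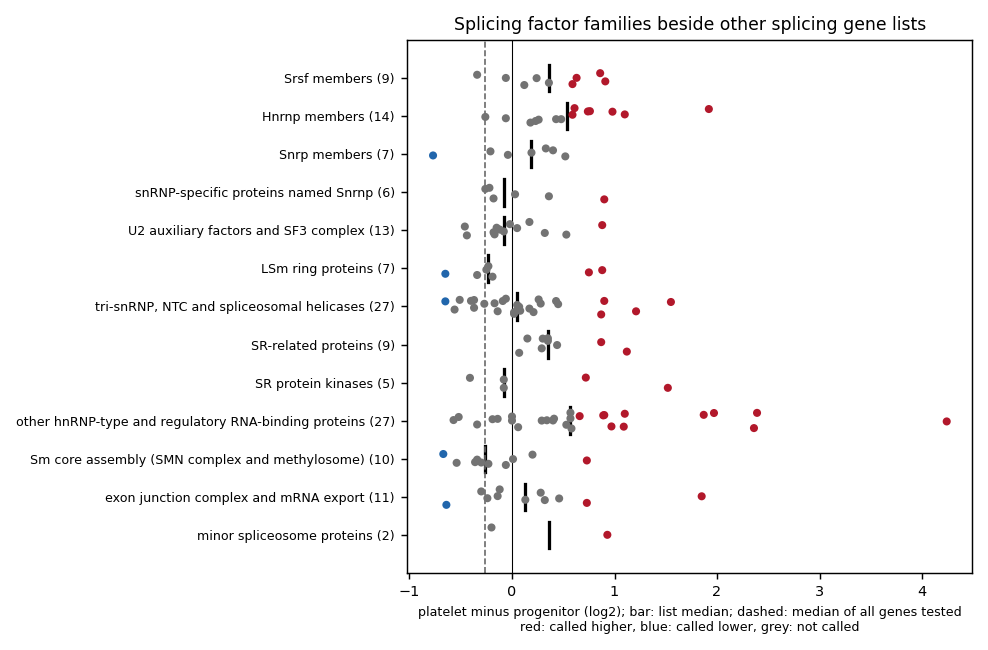
Platelet minus progenitor difference of each tested gene on the log2 scale for the 3 families and the 10 other splicing lists, with the number tested in brackets, black bars at list medians and the dashed line at the median of all genes tested. Red genes were called higher and blue lower; Mbnl1 at 4.24 is the furthest point.

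Markers of nuclei and of other cells were measured beside these genes. The counts below stand against 16.2% of all genes tested called higher and 25.7% called lower. Of 5 tested long RNAs that are retained in the nucleus, Tug1 rose (0.90, SE 0.10). Malat1 (0.22, SE 0.09), Neat1 (-0.21, SE 0.10), Miat (-0.52, SE 0.09) and Snhg11 (-0.33, SE 0.09) were not called. The median over the list was -0.21 as deposited. The signs of Neat1 and Snhg11 turned with other scalings, and that of Miat turned with olfactory centring (0.20). Malat1 had means of 5.40 in platelets and 5.18 in progenitors. Of 16 genes of nuclear structure and chromatin 4 rose, Npm1 (1.22, SE 0.20), Rad21, Top1 and Ncl, and Nup210 fell by 0.95 (SE 0.11). Erythroid genes were higher in platelets for 4 of 7, Fech by 4.86 (SE 0.16), and their mean signal ran from 6.43 to 6.58 in platelets and 4.83 to 4.92 in progenitors. Of 7 monocyte genes 3 rose, F13a1, which platelets also express, Lyz2 and Ly6c2, while Csf1r differed by 0.00 (SE 0.08), and the mean signals were 5.88 to 6.0 and 5.02 to 5.09. The neutrophil list ran from 5.05 to 5.34 in platelets and 6.73 to 6.94 in progenitors. B cell genes were lower in platelets for 3 of 6 (4.59 to 4.64 against 5.24 to 5.31). Of 7 T and NK cell genes 1 rose, Gzma, with means of 5.04 in platelets and 4.25 in progenitors. The T and NK cell list as a whole ran from 4.63 to 4.73 in platelets and 4.82 to 4.94 in progenitors. The stem and progenitor list ran from 5.75 to 5.90 in platelets and 5.07 to 5.30 in progenitors. Its largest differences were those of Slamf1 (4.94) and Itga2 (3.36). The median difference over its 9 genes was -0.10, with 4 of them above 0. Of 6 endothelial genes 1 rose, Pecam1, also a platelet protein, with means of 7.87 in platelets and 5.11 in progenitors. The endothelial list as a whole ran from 5.22 to 5.39 in platelets and 4.70 to 4.89 in progenitors. The part of other cells' RNA in the differences of the splicing factors was not tested.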

How the data were processed

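The authors deposited 1 table of log2 array signals for 72688 probes and 6 arrays, made with Affymetrix Expression Console 1.4.1.46 per the submitters' processing notes. The design text instead mentions MAS5.0, so the scaling between arrays is unclear; the genome build was not given in the sources used here. Values were used as deposited, with no pseudocount. Of the probes, 30604 named 1 gene symbol, and symbols were updated by Entrez identifier through RefSeq GRCm38.p6, which left 30142 genes. Probes may not tell near-identical transcripts apart. Cell type and EV effects were fitted with limma 3.58.1 in R 4.3.3 (additive terms, variances moderated with an intensity trend, 2 residual degrees of freedom), tested on simulated data. Arrays carry no read depth, and their number limits the precision. SDs are over 3 arrays of different treatment. Within a cell type, genes with a mean over its 3 arrays of at least 4.23 were counted, with no test. Every member could be named, with full statistics for called ones and Hnrnpa3, and up to 3 called genes each way per other list. The members and lists were chosen with earlier results of these data known. Alternatives were other scalings, floors, model terms, probe summaries and leaving out each array. Promoters used the first RefSeq entry of a gene.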

Additional observations from a re-analysis of the deposited data

Results flagged for a closer look

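For 16 of the 34 genes, both EV arrays lay below PBS in platelets and both lay above PBS in progenitors, so the EV shift pointed opposite ways in the cell types. The difference was not tested, because each shift rests on single arrays and both EV types share 1 PBS array per cell type. Of the 16 genes, 15 were among those tested for cell type. The share of all genes with this pattern was not counted. Of all genes over the floor in platelets, 52.7% lay below PBS with CTC41-EVs and 49.9% with CTC41.5G-EVs. In progenitors these shares were 41.8% and 27%. Hnrnpa3 stood furthest out, with a mean EV shift of -0.59 in platelets and 0.81 in progenitors, and the platelet shift lay below the progenitor shift by -1.41 on the log2 scale. These values come from a probe that carries another chromosome than the gene. Its probe on chromosome 2 stood at 6.41, 5.87 and 5.93 in platelets and 5.48, 5.76 and 5.76 in progenitors, with no EV shift past 1.5-fold. The same gap between the shifts, platelets minus progenitors, was -0.83 for Snrpg, whose probe also carries another chromosome than its gene. Among the other Sm ring genes it was -0.66 for Snrpf and -0.59 for Snrpe. Among hnRNP genes it was -0.67 for Hnrnpa0, -0.65 for Hnrnpab, -0.38 for Hnrnpl, -0.36 for Hnrnpk, -0.34 for Hnrnpul1, -0.27 for Hnrnpd, -0.25 for Hnrnph1 and -0.25 for Hnrnpu. Among SR genes it was -0.4 for Srsf9, -0.35 for Srsf6, -0.32 for Srsf1 and -0.26 for Srsf2.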

How the results depend on the processing

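The direction of the 11 rises held in every alternative run. No floor, a floor at the 75th percentile, a cell type term alone, no intensity trend and the mean over probes kept the call of every called gene they tested. Scaling changed counts. With arrays scaled to the same median 19 of the 30 genes rose and 0 fell (median 0.75), and after centring on olfactory receptor genes 26 rose and 0 fell (median 1.1). Of the other splicing genes, 46 rose and 0 fell with quantile normalization (median 0.41), 51 and 0 with equal medians (median 0.45) and 78 and 0 with olfactory centring (median 0.79). Of all genes tested, 21.9%, 24.8% and 40.4% were called higher and 12.1%, 10.1% and 5.46% lower in these settings. Signs below 0 turned for genes that were not called, to values, under quantile normalization, equal medians and olfactory centring, of 0.0984, 0.321, 0.663 for Hnrnpl, 0.154, 0.171, 0.513 for Snrpa1, 0.286, 0.333, 0.676 for Snrpb, 0.298, 0.318, 0.661 for Srsf11 and 0.033, 0.0385, 0.381 for Srsf12, and under the latter 2 of 0.117 and 0.459 for Hnrnpf. The cause was not tested. Leaving out 1 array gave 7 to 14 genes higher, always 1 lower, and a median of 0.19 to 0.49. For the other splicing genes it gave 26 to 29 higher, 2 to 6 lower and a median of 0.04 to 0.1. Of all 18875 genes tested, these runs called 2929 to 3137 higher and 4333 to 5181 lower, against 3063 and 4854 with all arrays. In the additive model, leaving out the platelet or the progenitor array of a treatment gives nearly the same fit. Between the PBS arrays alone the median was 0.68. With 1 array left out, Hnrnpl ran from -0.183 to 0.064, above 0 without a CTC41.5G-EVs array, and Srsf11 from -0.135 to 0.00158, above 0 without a CTC41-EVs array. In platelets, 2 genes instead of 1 were 1.5-fold lower with CTC41-EVs when arrays had equal medians. No EV comparison averaged over cell types called any of the genes in any setting run. The treatment term already pairs the platelet and progenitor arrays of a treatment, and with the cell type term alone 11 genes rose and 1 fell. The labels carry no replicate numbers for a further block. Alternatives chosen after seeing the data were the probes of several symbols, leaving out Hnrnpa3 and Snrpg, and the values within a treatment.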

Other observations

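The probes that name a gene of these families together with another symbol add 9 measurements, of which 6 reached the floor and entered a fit with all genes, an alternative chosen after seeing the data. Snrpd2, an Sm ring gene that shares its probe with Gm5848, rose in platelets, from 5.94, 5.83 and 6.49 in progenitors to 7.38, 6.96 and 7.14 (1.07, SE 0.17, adjusted p = 0.00106). Snrpa, the gene of the A protein of the U1 particle, differed by -0.54 (SE 0.10, adjusted p = 0.00258) and the imprinted gene Snrpn, whose probe also names Snurf, by -0.44 (SE 0.10), both under the 1.5-fold limit. Hnrnpa1 differed by -0.30 (SE 0.10, adjusted p = 0.0339) on a probe that also names Gm10052, Gm5803 and Gm5643, and Hnrnpdl by 0.26 (SE 0.10, adjusted p = 0.0531). With equal medians Snrpa, Snrpn and Hnrnpa1 differed by -0.16, -0.06 and 0.08, and with olfactory centring by 0.18, 0.28 and 0.42, so their signs depend on the scaling.

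The probe of the pseudogene Snrp1c-ps2 stood at 4.66, 4.14 and 4.31 in platelets and 4.88, 5.26 and 5.24 in progenitors, and that of Hnrnpa1l2-ps at 5.90, 5.70 and 5.05 against 5.33, 5.55 and 5.57, arrays again listed with PBS first and CTC41.5G-EVs last.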
